A study of Homo sapiens with 18 samples.

Results

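A set of 10 genes that mark neuroendocrine cells were examined for 2 histone modifications, H3K4me3 and H3K27me3, in prostate cancer cells with and without overexpression of the long noncoding RNA H19. The 10 genes were the granins CHGA, CHGB, SCG2 and SCG3, the synaptic genes SYP and SNAP25, and DDC, ENO2, UCHL1 and NCAM1. They were taken by name, 10 of 19671 protein-coding genes whose strand was known. Each gene was read from 3 kb upstream of its start to its end on GRCh38, here called its window.

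V16D is a castration-resistant prostate cancer line derived from LNCaP cells, and every library came from it. V16D/CTL cells carried a control lentivector and V16D/H19 cells carried a lentivector that overexpresses H19, which the study's methods describe as driven by a CMV promoter. Both groups were transduced in biological triplicate, and each replicate gave an H3K4me3 library, an H3K27me3 library and an input library. The design therefore asks whether the marks at these genes differ between H19-overexpressing cells and their vector controls, in a single cell line with 3 replicates per group.

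Neuroendocrine cells store peptide hormones and amines in dense-core granules, and prostate tumors that lose dependence on the androgen receptor can acquire the same granule, synaptic and adhesion proteins. Pathologists stain for chromogranin A, synaptophysin, neuron-specific enolase and CD56 (NCAM1) to recognize such tumors. H3K4me3 is a mark of promoters that are active or poised, whereas H3K27me3 is deposited by the Polycomb complex PRC2 at silenced genes. A promoter carrying both marks is called bivalent.

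Of the 10 genes, 6 have an entry in the RefSeq promoter sequences (GRCh38.p14), each running from 250 bases before a transcription start to 50 bases after it. The 5 printed here span the range of H3K4me3 seen among the markers: ENO2 with the strongest promoter peak, SCG3 with a weak peak, and CHGA, UCHL1 and DDC with none. Capitals mark CpG dinucleotides, and all are written 5′ to 3′ on the gene's own strand.
ENO2 promoter, chr12:6914330-6914629, + strand: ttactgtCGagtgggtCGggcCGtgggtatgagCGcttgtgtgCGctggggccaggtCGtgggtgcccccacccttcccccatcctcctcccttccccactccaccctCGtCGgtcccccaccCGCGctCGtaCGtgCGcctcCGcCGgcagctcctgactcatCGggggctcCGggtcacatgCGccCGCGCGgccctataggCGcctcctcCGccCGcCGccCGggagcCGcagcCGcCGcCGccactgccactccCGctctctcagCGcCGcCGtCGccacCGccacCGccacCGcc
SCG3 promoter, chr15:51681253-51681552, + strand: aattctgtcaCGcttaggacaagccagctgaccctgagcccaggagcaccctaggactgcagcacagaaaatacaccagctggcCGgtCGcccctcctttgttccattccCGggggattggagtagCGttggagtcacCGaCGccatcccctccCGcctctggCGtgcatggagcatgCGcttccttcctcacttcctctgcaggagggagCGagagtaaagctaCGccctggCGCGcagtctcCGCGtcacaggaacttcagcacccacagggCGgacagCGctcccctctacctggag
CHGA promoter, chr14:92922900-92923199, + strand: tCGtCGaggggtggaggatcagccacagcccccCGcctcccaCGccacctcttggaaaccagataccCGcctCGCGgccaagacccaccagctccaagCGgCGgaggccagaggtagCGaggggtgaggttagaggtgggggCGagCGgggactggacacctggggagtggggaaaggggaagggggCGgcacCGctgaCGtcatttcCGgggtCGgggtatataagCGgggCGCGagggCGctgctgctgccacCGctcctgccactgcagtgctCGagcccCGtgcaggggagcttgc
UCHL1 promoter, chr4:41256678-41256977, + strand: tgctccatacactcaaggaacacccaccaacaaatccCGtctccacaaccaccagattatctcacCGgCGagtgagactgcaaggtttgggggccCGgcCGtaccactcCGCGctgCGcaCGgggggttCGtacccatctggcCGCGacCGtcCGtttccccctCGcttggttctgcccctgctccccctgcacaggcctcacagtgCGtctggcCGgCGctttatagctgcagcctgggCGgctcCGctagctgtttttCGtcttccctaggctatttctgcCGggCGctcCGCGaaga
DDC promoter, chr7:50565356-50565655, - strand: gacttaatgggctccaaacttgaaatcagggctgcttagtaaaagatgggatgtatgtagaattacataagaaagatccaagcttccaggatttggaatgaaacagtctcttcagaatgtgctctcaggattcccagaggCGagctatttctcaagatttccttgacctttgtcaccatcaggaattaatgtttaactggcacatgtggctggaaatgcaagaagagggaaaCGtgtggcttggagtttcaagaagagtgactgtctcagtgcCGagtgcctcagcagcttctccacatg

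The ENO2 promoter held 38 CpG dinucleotides, SCG3 held 18, CHGA held 24, UCHL1 held 25 and DDC held 3. SYP, whose promoter is not printed, held 35. Over 15842 protein-coding promoters in the RefSeq set the median was 22. The 9940 promoters with an H3K4me3 peak in all 6 libraries had a median of 27 (quartiles 20 and 35), and the 5421 promoters with no such peak had a median of 6 (quartiles 2 and 16). DDC was thus unmarked and poor in CpG, like most promoters without the peak. CHGA and UCHL1 were unmarked in spite of a CpG content above the median. Among the 7230 promoters with at least as many CpG dinucleotides as CHGA, 11.2% lacked an H3K4me3 peak in every library, and among the 6830 with at least as many as UCHL1, 11.0% did. DNA methylation was not part of these data.

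**Figure D1:**
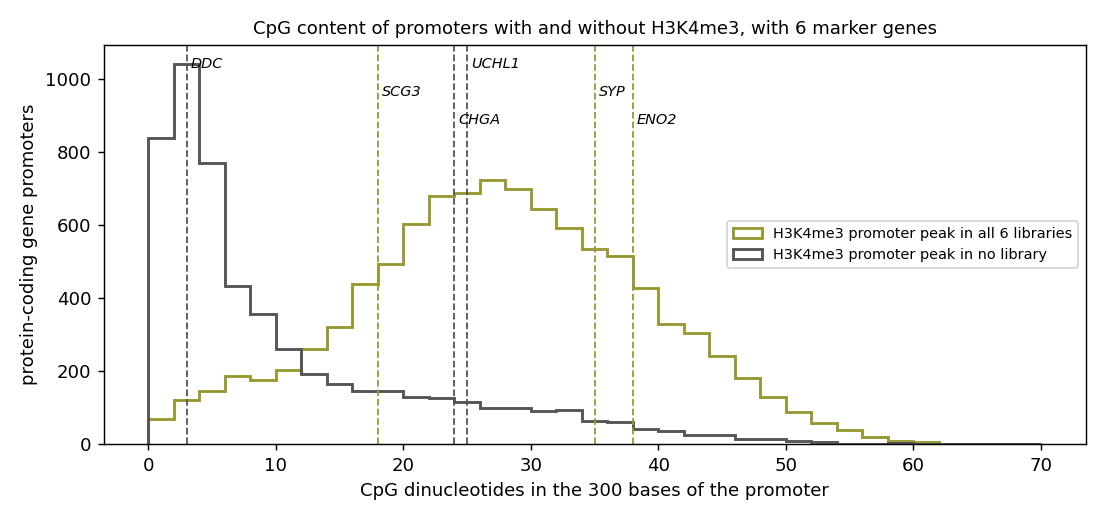
Number of protein-coding promoters (y axis) by CpG dinucleotides in their 300 bases (x axis), for promoters with an H3K4me3 peak in all 6 libraries and for those with a peak in none. Dashed lines place the 6 marker genes in the colour of their own class: CHGA at 24 and UCHL1 at 25 have no peak but lie where most promoters have one, while DDC at 3 lies in the unmarked peak of the distribution.

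Short factor motifs were searched for in the same sequences on both strands. CAGCACC and GGACAG, the left and right parts of the element bound by the neuronal repressor REST, were both in the SCG3 promoter, at 10 to 16 and 25 to 30 bases after the start. Of all promoters, 7.69% held the left part and 21.3% held the right part. TGACGTCA, the cyclic AMP response element, lay 54 to 47 bases before the start used for the CHGA promoter entry, and 2.56% of promoters held it. TATAAA was found in the UCHL1 promoter 29 to 24 bases before the start, on the opposite strand, and in 9.75% of all promoters. None of the 6 marker promoters held the variant TGACGTAA, which was in 0.562% of promoters. These matches describe letters in a window and say nothing of binding in V16D cells.

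The H3K4me3 lists held between 20048 and 21934 peaks per library and covered 30.0 ± 0.532 Mb (SD, n = 3) in V16D/CTL against 30.4 ± 1.40 Mb in V16D/H19. The H3K27me3 lists held between 55060 and 72289 peaks and covered 55.4 ± 9.07 Mb in V16D/CTL against 46.1 ± 3.31 Mb in V16D/H19. Within the H3K27me3 lists, 0.252% to 0.967% of peaks reached a −log10 q of 5, against 88.3% to 91.6% within the H3K4me3 lists, so single H3K27me3 peaks rest on weak evidence. The H19 locus carried no peak of either mark in any of the 12 lists, and peak lists cannot check the amount of H19 RNA. Of 9 markers of luminal prostate epithelium, the labelled cell type, 8 (KLK2, KLK3, TMPRSS2, KRT8, KRT18, FOLH1, HOXB13 and ACPP) had an H3K4me3 promoter peak in all 6 libraries, where 60.8% of all genes did. No library had the peak at 3 of 3 basal keratins, 4 of 4 immune markers and the 2 endothelial markers measured of 3 listed, and 35.8% of all genes had none. Whether these lists differ from those shares was not tested. The 6 neuronal markers were mixed, with the peak in all 6 libraries at RBFOX3, MAP2, TUBB3 and NEFL, and COL1A1 was the 1 marked gene of 5 fibroblast markers.

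A promoter was taken as the stretch within 1 kb either side of a gene's start. Of the 10 markers, 4 had an H3K4me3 promoter peak in all 6 libraries (SCG3, SYP, SNAP25 and ENO2), and 60.8% of all protein-coding genes did. Another 4 had no H3K4me3 peak in any library, at the promoter or anywhere in the window (CHGA, SCG2, DDC and UCHL1), and 35.8% of all genes lacked a promoter peak. A peak anywhere in the window was called in at least 1 library at 14250 of 19671 genes. CHGB and NCAM1 lay between, with a peak in some libraries. The number of marked promoters was 5, 4 and 4 in the V16D/CTL replicates and 6, 6 and 4 in the V16D/H19 replicates. These counts overlap between the groups.

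H3K27me3 had a promoter peak in at least 1 library at 7 of 10 markers (CHGA, CHGB, SCG2, SCG3, SNAP25, ENO2 and NCAM1), where 15.3% of all genes had one. CHGB and NCAM1 had the peak in all 6 libraries, and 6.44% of all genes did. SYP, DDC and UCHL1 had no H3K27me3 promoter peak, and UCHL1 had no peak of either mark in its whole window. Per library, 3, 6 and 5 marker promoters were covered in V16D/CTL against 4, 3 and 4 in V16D/H19, again overlapping.

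All 377 H3K27me3 peaks at the markers were low, with folds over input from 2.69 to 6.09, and 1 of the 377 reached a −log10 q of 5. The 46 H3K4me3 peaks ranged from 3.85-fold to 57.9-fold over input, and 43 of them reached that q. Fold over input is the authors' linear ratio of immunoprecipitated to input signal at a peak, and a library without a peak has no value rather than a value of 0.

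Among the granins, which are acidic proteins packed into secretory granules, SCG3 alone had H3K4me3 in every library. SCG3 encodes secretogranin III, which helps sort chromogranin A into granules. The gene lies at chr15:51681503-51721026 on the + strand. Its promoter peak stood at 12.2-fold, 12.1-fold and 5.64-fold over input in the V16D/CTL replicates and at 21.2-fold, 16.4-fold and 14.1-fold in the V16D/H19 replicates. Every V16D/H19 library was above every V16D/CTL library. Group means were 9.97 ± 3.75 (SD, n = 3) and 17.2 ± 3.61, a ratio of 1.73, with p = 0.1 in a two-sided exact permutation test, the smallest p that 3 against 3 libraries can give. Of 11968 genes with a promoter peak in all 6 libraries, 7.14% were higher in V16D/H19 without overlap and 3.96% were lower, and the p of SCG3 adjusted over all these genes was 0.901 in the same permutation test. The height of the SCG3 peak stayed low among marked promoters, above only 1.82% to 14.3% of them, while the median marked promoter stood between 42.5-fold and 49.0-fold per library.

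The SCG3 peak did not become wider in the same way. It covered 495, 675 and 285 bases in V16D/CTL against 590, 571 and 516 bases in V16D/H19, and these widths overlap. Its upstream edge lay between positions −507 and −371 from the start, and in 5 of 6 libraries it reached past the start, into the stretch of the printed sequence that holds the parts of the REST element. H3K27me3 at SCG3 consisted of short peaks inside the gene, covering 2104, 980 and 681 bases in V16D/CTL against 1594, 2091 and 2803 bases in V16D/H19, with p = 0.3 in the exact permutation test. Only V16D/H19 replicate 3 had an H3K27me3 peak within 1 kb of the SCG3 start, and it did not touch the H3K4me3 peak.

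CHGB encodes chromogranin B, a second major granule protein, and lies at chr20:5911510-5925353 on the + strand. No V16D/CTL library had an H3K4me3 peak at CHGB. V16D/H19 replicate 1 had a peak of 248 bases at 5.80-fold over input and V16D/H19 replicate 2 had one of 466 bases at 11.9-fold, both spanning the start, while V16D/H19 replicate 3 had none. The groups therefore share the state without a peak, and the covered length gave p = 0.4 in the exact permutation test. A promoter peak in at least 2 V16D/H19 libraries and in no V16D/CTL library was found at 0.564% of all genes. That is the pattern CHGB showed, and its reverse was not counted. Most genes could not show this pattern, since 60.8% had a promoter peak in all 6 libraries and 35.8% in none. Both peaks were among the lowest 7.18% of marked promoters in their libraries, and both had a −log10 q above 5.

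CHGB was also the marker most widely covered by H3K27me3. Peaks covered 8730, 6268 and 10033 bases of its window in V16D/CTL against 4318, 5545 and 3958 bases in V16D/H19. The lowest V16D/CTL value was above the highest V16D/H19 value. As a share of the window this was 49.5% ± 11.4 (SD, n = 3) in V16D/CTL against 27.4% ± 4.94 in V16D/H19, a ratio of 0.552, with p = 0.1 in the exact permutation test, the smallest possible, and 0.547 adjusted over all genes. Of 5520 genes with an H3K27me3 peak in any library, 15.9% were lower in V16D/H19 without overlap and 2.41% were higher. The whole H3K27me3 lists covered 45.1 to 62.2 Mb in V16D/CTL and 42.3 to 48.4 Mb in V16D/H19, a lower mean with overlapping libraries. Per megabase covered by a library's list, CHGB took 194, 107 and 161 bases in V16D/CTL against 102, 117 and 81.8 bases in V16D/H19, and these values overlap. The groups overlapped as well when only peaks lying mostly inside the window were counted.

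The H3K27me3 peaks of CHGB did not differ in height beyond their spread. Their highest fold over input was 4.27, 4.51 and 5.07 in V16D/CTL against 4.51, 3.84 and 3.64 in V16D/H19, and these overlap (p = 0.2, exact permutation test). All 6 libraries had an H3K27me3 peak within 1 kb of the CHGB start. In V16D/H19 replicate 2 it shared 165 bases with the H3K4me3 peak, and no other replicate had both marks on the same bases.

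**Figure D2:**
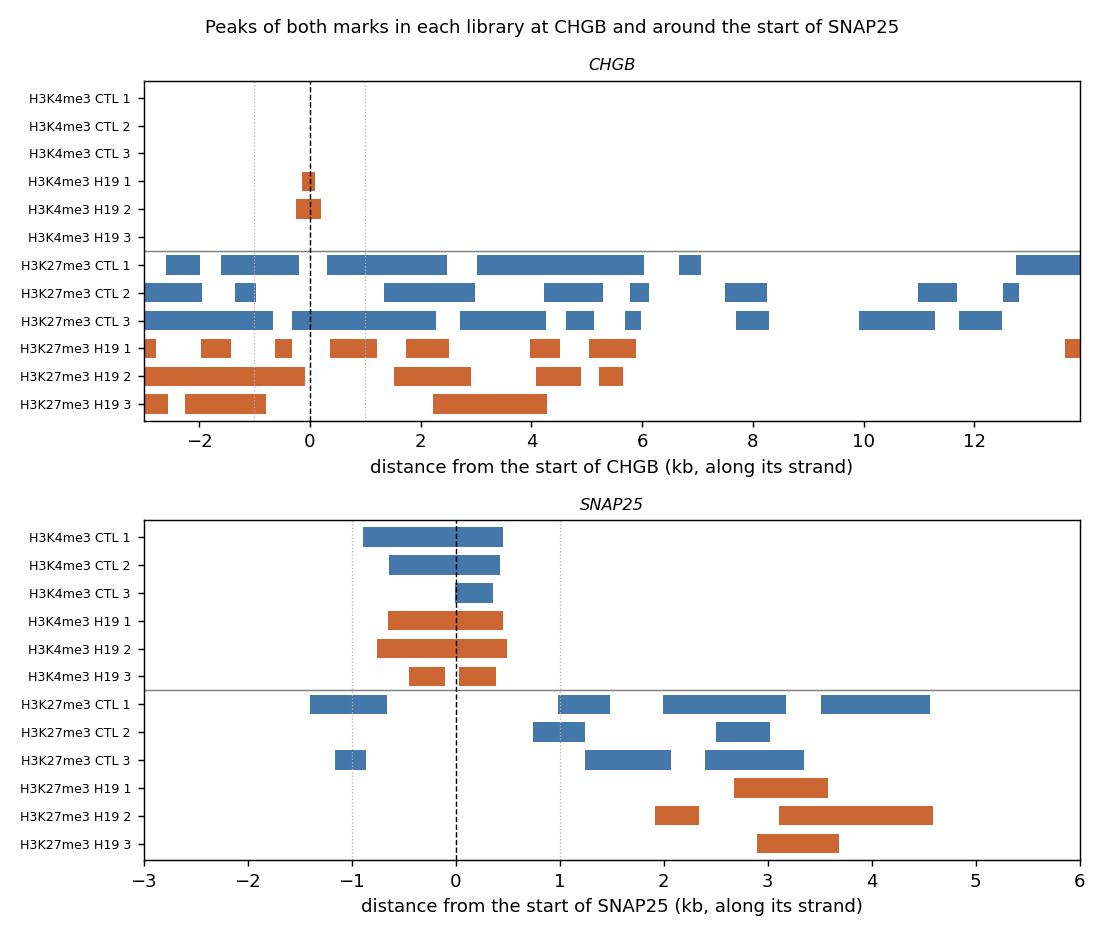
Peaks of each library (rows, replicates 1 to 3 of V16D/CTL in blue and V16D/H19 in orange) along CHGB from 3 kb upstream to its end, and from 3 kb upstream to 6 kb inside SNAP25. The x axis is the distance from the gene's start in kb, the dashed line is the start and the dotted lines lie 1 kb either side. H3K4me3 at CHGB appears in V16D/H19 replicates 1 and 2, and H3K27me3 within 1 kb of the SNAP25 start appears in the 3 V16D/CTL libraries.

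CHGA encodes chromogranin A, the granin most used in diagnosis, and lies at chr14:92922664-92935285 on the + strand. It had no H3K4me3 peak. H3K27me3 covered 673, 2474 and 2576 bases of its window in V16D/CTL against 1741, 2301 and 1268 bases in V16D/H19, overlapping with p = 0.8 in the exact permutation test. The mark lay within 1 kb of the start in 2 of 3 V16D/CTL and 3 of 3 V16D/H19 libraries. When the 3 kb upstream were left out, CHGA was covered more in V16D/H19 without overlap, with p = 0.1, the smallest possible in the exact permutation test. The difference in means (V16D/H19 minus V16D/CTL) was then 519 bases, against −138 bases in the full window, so its direction depends on the window. The CHGA sequence printed above starts from an annotated start 486 bases inside the gene's 5′ end, so the 1 kb promoter contains it.

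SCG2, which encodes the precursor of secretoneurin, lies at chr2:223596940-223602361 on the − strand and was nearly empty. It had no H3K4me3 peak, and H3K27me3 peaks of 293, 373 and 295 bases were found in V16D/CTL replicate 2, V16D/H19 replicate 1 and V16D/H19 replicate 3. The remaining 3 libraries had none.

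SYP encodes synaptophysin, a membrane protein of synaptic and small secretory vesicles, and lies at chrX:49187815-49200193 on the − strand. Its strongest H3K4me3 was not at its start. In all 6 libraries a pair of peaks lay more than 5 kb inside the gene, from 7697 to 10285 bases after the start, and the higher of the pair stood at 57.9-fold, 25.04-fold and 54.9-fold over input in V16D/CTL against 38.3-fold, 33.4-fold and 41.3-fold in V16D/H19. These heights overlap (p = 0.4, exact permutation test). No other RefSeq gene spans that stretch, since SYP-AS1 ends 1354 bases after the SYP start. At the start itself the peaks were low, at 8.54-fold, 5.81-fold and 10.9-fold in V16D/CTL against 7.98-fold, 13.6-fold and 6.80-fold in V16D/H19, and they overlap too. SYP-AS1 lies over the SYP start on the opposite strand, so the peaks there cannot be assigned to either gene alone.

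The length of SYP under H3K4me3 was the 1 such length among the markers that did not overlap between the groups. It was 2357, 2337 and 2613 bases in V16D/CTL against 3052, 3071 and 2647 bases in V16D/H19. Group means were 2436 ± 154 (SD, n = 3) and 2923 ± 240 bases, a ratio of 1.20 with p = 0.1, the smallest possible in the exact permutation test, and 0.704 adjusted over all genes. Across 14250 genes with an H3K4me3 peak in any library, 8.33% were longer in V16D/H19 without overlap and 5.87% were shorter. The non-overlap came from the stretch within 5 kb of the start, with 365, 455 and 642 bases against 785, 870 and 708 bases, while the inner pair covered 1882 to 1992 bases in V16D/CTL against 1939 to 2267 bases in V16D/H19. The peaks at the start also lie in SYP-AS1, so this difference cannot be assigned to SYP alone. With peaks of −log10 q of at least 5 only, the SYP lengths overlapped. H3K27me3 was limited to 1 peak of 292 bases in V16D/H19 replicate 2.

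**Figure D3:**
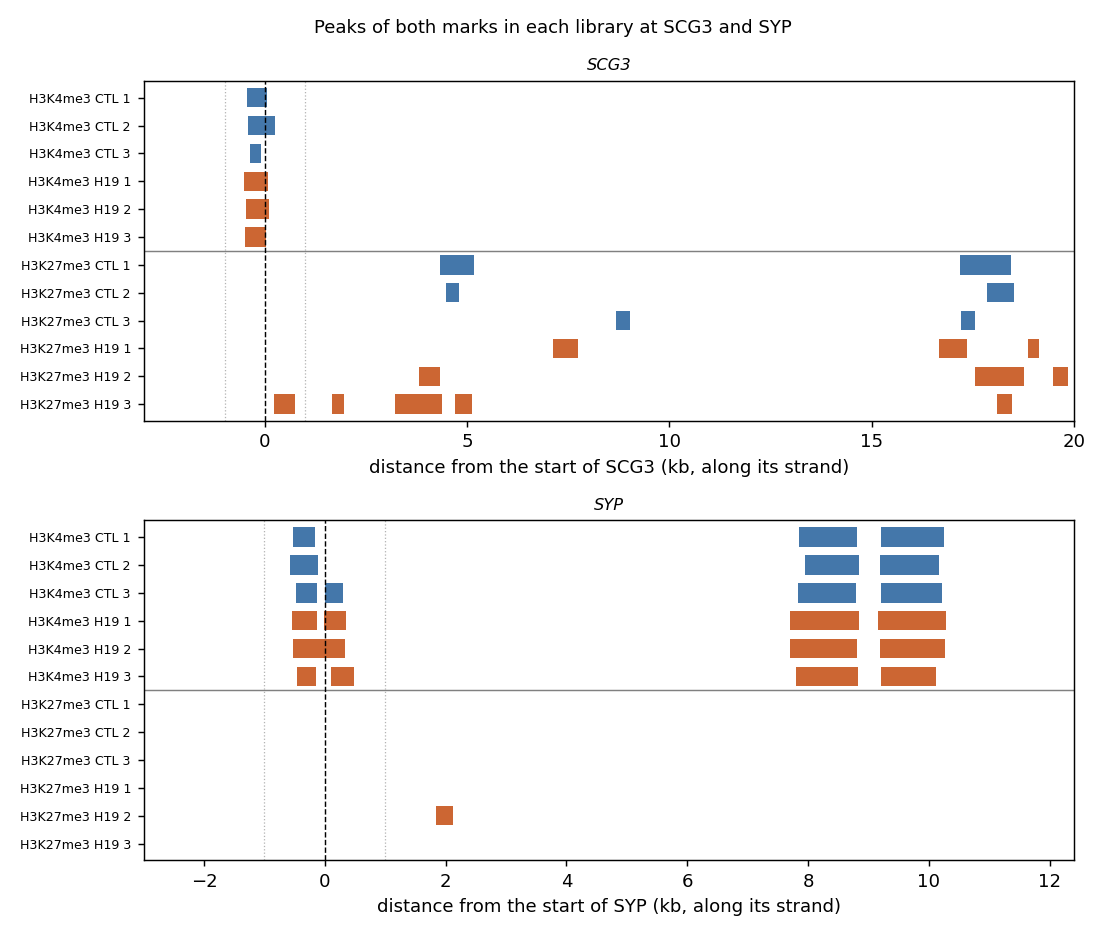
Peaks of each library along the first 20 kb of SCG3 and along SYP, drawn as rows of V16D/CTL (blue) and V16D/H19 (orange) replicates against distance from the start in kb. SCG3 has 1 H3K4me3 peak at its start in all 6 libraries, and SYP has short peaks at its start and a wide pair about 8 to 10 kb inside the gene.

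SNAP25 encodes a SNARE protein of the plasma membrane that drives vesicle fusion, and lies at chr20:10218830-10307418 on the + strand. Its H3K4me3 promoter peak stood at 13.8-fold, 5.76-fold and 6.52-fold over input in V16D/CTL against 6.60-fold, 17.2-fold and 11.5-fold in V16D/H19. The groups overlap, with means of 8.69 ± 4.43 and 11.8 ± 5.28 (SD, n = 3) and p = 0.5 in the exact permutation test. SNAP25-AS1 is transcribed from the opposite strand and reaches 676 bases past the SNAP25 start, so the peak cannot be assigned to either gene alone.

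H3K27me3 near the SNAP25 start was called in all 3 V16D/CTL libraries and in no V16D/H19 library, a pattern found at 0.29% of all genes. Most genes could not show it, since 15.3% had an H3K27me3 promoter peak in any library. The reverse pattern was not counted. The nearest H3K27me3 peak lay 660, 745 and 863 bases from the start in V16D/CTL against 2676, 1916 and 2898 bases from it in V16D/H19. The V16D/CTL peaks were short, 294 to 738 bases, and their −log10 q was between 1.36 and 2.97. The contrast depends on the limit of the promoter, since all 3 libraries of both groups had a peak within 3 kb of the start. With lists cut to equal length it was 2 of 3 against 0 of 3, and with a −log10 q of at least 5 no library of either group had a peak. Over the whole window the covered length was 4171, 1793 and 4709 bases in V16D/CTL against 1195, 2384 and 785 bases in V16D/H19, overlapping with p = 0.2 in the exact permutation test. In V16D/CTL replicate 1 the H3K4me3 and H3K27me3 peaks shared 228 bases at the edge of the promoter.

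ENO2 encodes neuron-specific enolase, a glycolytic enzyme, and lies at chr12:6914580-6923697 on the + strand. It had the strongest H3K4me3 promoter peak of the markers, at 30.7-fold, 45.9-fold and 41.6-fold over input in V16D/CTL against 40.1-fold, 33.6-fold and 21.9-fold in V16D/H19. The groups overlap, with means of 39.4 ± 7.85 and 31.9 ± 9.22 (SD, n = 3) and p = 0.4 in the exact permutation test. Even this peak was higher than only 15.1% to 52.4% of marked promoters. It was 1267 to 1599 bases wide and lay over the start in every library. LRRC23, on the same strand, ends at position −351 from the ENO2 start. Weak H3K27me3 peaks of 294 to 531 bases were called at ENO2 in 2 libraries of each group, and in V16D/CTL replicates 2 and 3 they shared 348 and 381 bases with the H3K4me3 peak.

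**Figure D4:**
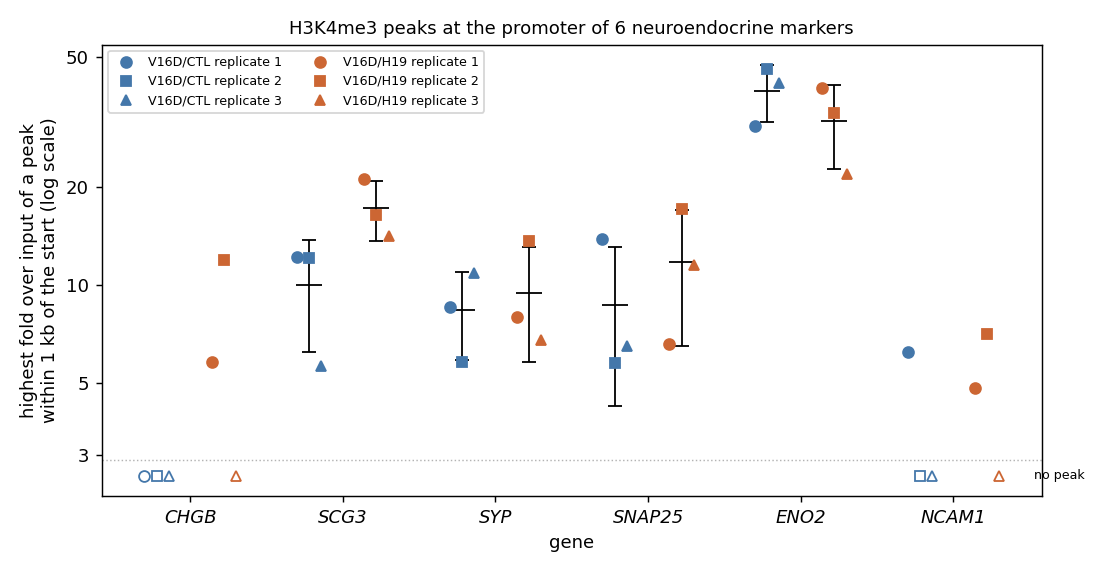
Highest fold over input of an H3K4me3 peak within 1 kb of the start (y axis, log scale) for the 6 markers with a peak in any library. Points are single libraries, bars are the mean ± SD of 3 libraries where all 3 have a peak, and open symbols are libraries without a peak. ENO2 is highest, and SCG3 is the gene whose groups do not overlap.

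The order of promoter heights in V16D/CTL was ENO2 with a mean of 39.4-fold, then SCG3 with 9.97-fold, SNAP25 with 8.69-fold and SYP with 8.40-fold. In V16D/H19 it was ENO2 with 31.9-fold, SCG3 with 17.2-fold, SNAP25 with 11.8-fold and SYP with 9.47-fold. In each group ENO2 was above the other 3 genes in every library. SCG3, SNAP25 and SYP overlapped one another in V16D/CTL. In V16D/H19, SCG3 was above SYP in every library and overlapped SNAP25.

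NCAM1 encodes the neural cell adhesion molecule CD56 and is the longest marker, at chr11:112961420-113278436 on the + strand. It carried the largest amount of H3K27me3, with 29443, 35822 and 40128 bases in V16D/CTL against 35004, 30048 and 41948 bases in V16D/H19. The groups overlap almost completely (p = 0.9, exact permutation test), and the mark took 11.0% ± 1.68 and 11.1% ± 1.87 (SD, n = 3) of the window. The mark was spread over the gene in 33 to 56 peaks per library. From 3 kb upstream to 10 kb inside it covered 9331, 11382 and 8698 bases in V16D/CTL against 7337, 8976 and 9636 bases in V16D/H19, most of that stretch, and there it was highest. The highest fold over input was 5.29, 4.94 and 6.09 in V16D/CTL against 5.06, 4.58 and 4.62 in V16D/H19, overlapping with p = 0.2 in the exact permutation test.

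H3K4me3 at the NCAM1 start was faint and irregular. V16D/CTL replicate 1 had a peak at 6.25-fold over input, and V16D/H19 replicates 1 and 2 had peaks at 4.82-fold and 7.07-fold. The remaining 3 libraries had none. Each H3K4me3 library with a peak had H3K27me3 on some of the same bases. The whole peak was shared in V16D/CTL replicate 1 (297 bases) and in V16D/H19 replicate 2 (1129 bases). In V16D/H19 replicate 1 the peak of 240 bases at the start shared 14 bases, and a second peak, of 464 bases, was shared whole. NCAM1-AS2 overlaps the start on the opposite strand, so these peaks cannot be assigned to 1 gene.

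DDC encodes aromatic L-amino acid decarboxylase, which makes dopamine and serotonin, and lies at chr7:50458442-50565405 on the − strand. It had no H3K4me3 peak and 1 short H3K27me3 peak, of 294 to 444 bases, in 2 libraries of each group. UCHL1 encodes a neuronal ubiquitin hydrolase also known as PGP9.5, and lies at chr4:41256928-41268455 on the + strand. It was the 1 marker with no peak of either mark in any of the 12 lists, despite a promoter with 25 CpG dinucleotides.

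**Figure D5:**
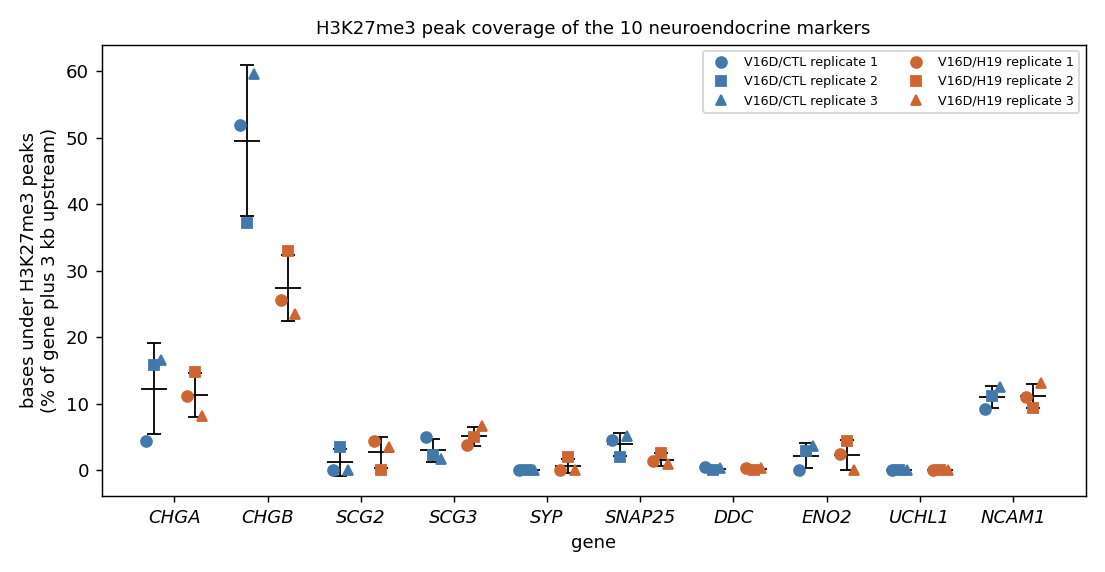
Bases under H3K27me3 peaks as a percentage of each gene plus its 3 kb upstream (y axis) for the 10 markers. Points are single libraries and bars are the mean ± SD of 3. CHGB is the most covered gene, at 37.2% to 59.6% in V16D/CTL against 23.5% to 32.9% in V16D/H19, and UCHL1 is at 0 throughout.

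Overlapping peaks of both marks at the promoter were seen in at least 1 replicate at 4 of 10 markers (CHGB, SNAP25, ENO2 and NCAM1), and at 7.72% of all genes. By replicate, 2, 1 and 1 markers had them in V16D/CTL against 1, 2 and 0 in V16D/H19. No marker had overlapping marks in all 3 replicates of a group. ENO2 and SNAP25 had them in V16D/CTL alone and CHGB in V16D/H19 alone, each in 1 or 2 replicates, so these do not hold up against the spread between replicates.

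For none of the 10 markers could a difference pass a threshold of 0.05 in this design. Of the 6 markers with H3K4me3 in any library, 1 was longer without overlap in V16D/H19 (SYP) and none was shorter, against 8.33% and 5.87% of all genes with the mark. Of the 4 with an H3K4me3 peak in all 6 libraries, 1 had a higher fold in V16D/H19 without overlap (SCG3) and none a lower one, against 7.29% and 3.87% of 13355 genes for the highest fold in the window. Of the 9 markers with H3K27me3, 1 was covered less in V16D/H19 without overlap (CHGB) and none more, against 15.9% and 2.41% of all genes with the mark. None of the 5 with H3K27me3 in all 6 libraries had a fold without overlap, where 17.9% of 2725 genes were lower. The median difference in H3K27me3 length (V16D/H19 minus V16D/CTL) was 12.3 bases over the 9 markers and −196 bases over all 5520 genes. In H3K4me3 length it was 204 bases over 6 markers and 16.3 bases over 14250 genes. Of these 6, CHGB had a peak in V16D/H19 libraries alone, so it entered through that group and its difference could only be positive. NCAM1 also lacked a peak in some libraries. Of the 9 with H3K27me3, SYP had a peak in 1 V16D/H19 library alone, so its difference too could only be positive. For the highest H3K4me3 fold in the window the median difference was −2.23 over 4 markers (2 higher, 2 lower) and 1.116 over 13355 genes. For the promoter fold it was 2.07 over 4 markers and 1.157 over 11968 genes. For the highest H3K27me3 fold it was −0.283 over 5 markers, all lower, and −0.246 over 2725 genes. Whether the markers differ from all genes in these medians was not tested.

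None of the 10 symbols is listed in the authors' tables of differential sites, which hold 1857 H3K4me3 and 1140 H3K27me3 sites, and no listed site lies in a marker's window. Of all protein-coding genes, 7.07% are listed for H3K4me3 and 3.24% for H3K27me3. The nearest H3K4me3 site was 13 kb from ENO2, annotated to ATN1, and 37 kb from UCHL1, annotated to APBB2. For the other 8 markers it was at least 184 kb away, and the nearest H3K27me3 site was at least 205 kb away from any marker.

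The granules that hold the granins also need processing enzymes and other cargo, and 10 such genes were examined for the same measures. Of these, 5 had an H3K4me3 promoter peak in all 6 libraries and 7 had an H3K27me3 promoter peak in at least 1 library, against 60.8% and 15.3% of all genes. H3K4me3 was longer without overlap at 1 of 9 genes with the mark (8.33% of all such genes), PCSK2, which encodes prohormone convertase 2, with 205, 393 and 258 bases in V16D/CTL against 451, 937 and 851 bases in V16D/H19. H3K27me3 was shorter without overlap at 2 of 7 genes with the mark, against 15.9% of all such genes. VGF, which encodes a granin-like neuropeptide precursor, had 7033 ± 216 bases (SD, n = 3) in V16D/CTL against 5361 ± 888 in V16D/H19, and PTPRN2, a granule membrane phosphatase, had 241046 ± 27769 and 185813 ± 9489. Each of these gave p = 0.1, the smallest possible in the exact permutation test. The H3K27me3 lists had a lower mean coverage in V16D/H19. Unlike those of CHGB, the lengths of VGF and PTPRN2 were not set against each library's covered length. PCSK2 held overlapping peaks of both marks at its promoter in all 3 replicates of both groups, unlike any of the 10 markers.

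Of 20 other synaptic vesicle and SNARE genes, 16 had an H3K4me3 promoter peak in all 6 libraries and 8 had an H3K27me3 promoter peak in at least 1, again against 60.8% and 15.3% of all genes. Of the 18 with H3K4me3 in the window, the mark was longer without overlap at 1, SYNGR3, which is named here after its values were seen. The mark was shorter without overlap at 1, SYT1, the calcium sensor of vesicle release, with 491 ± 62.1 against 159 ± 138 bases. No library had an H3K4me3 peak within 1 kb of the SYT1 start, so these bases lay away from the promoter. The V16D/H19 libraries held 231, 246 and 0 bases. Of all genes with the mark, 8.33% were longer and 5.87% shorter in V16D/H19 without overlap. H3K27me3 was shorter without overlap at 3 of 10 genes with the mark, among them SV2B and SYN3, against 15.9% of all such genes. SV2B, a vesicle glycoprotein, had 20542 ± 1457 bases in V16D/CTL against 12464 ± 1280 in V16D/H19. SYN3, a synapsin, had 8381 ± 1816 and 4287 ± 1684 bases. These lengths too were not set against each library's covered length, which had a lower mean in V16D/H19.

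Of 13 genes of monoamine synthesis and transport, 4 had H3K4me3 at the promoter in all 6 libraries and 9 had it in none, as DDC did. Of all genes, 60.8% had that peak in all 6 libraries and 35.8% in none. An H3K27me3 promoter peak was called in at least 1 library at 8 of the 13, against 15.3% of all genes. H3K27me3 was shorter without overlap at 3 of 9 genes with the mark and longer at none, against 15.9% and 2.41% of all such genes. DBH, which converts dopamine to noradrenaline, had 16586 ± 2371 bases (SD, n = 3) in V16D/CTL against 8693 ± 2166 in V16D/H19. The dopamine transporter SLC6A3 had 12896 ± 309 and 8316 ± 1048 bases, and the serotonin transporter SLC6A4 had 1555 ± 417 and 677 ± 233. These shorter lengths stand beside H3K27me3 lists with a lower mean coverage in V16D/H19, and the part of that in them was not tested.

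A list of 10 paralogues of ENO2, UCHL1, NCAM1 and SNAP25 was also examined. All 10 (ENO1, ENO3, ENO4, UCHL3, UCHL5, BAP1, NCAM2, SNAP23, SNAP29 and SNAP47) had an H3K4me3 promoter peak in all 6 libraries and none had an H3K27me3 promoter peak, where 60.8% and 15.3% of all genes did, and the difference from the markers was not tested. SYPL2, a relative of SYP counted with the synaptic genes, had both marks at its promoter in all 6 libraries. The unmarked UCHL1 therefore has marked relatives in UCHL3, UCHL5 and BAP1. UCHL5, a proteasome-associated hydrolase, had H3K27me3 in its window of 0, 336 and 0 bases in V16D/CTL against 744, 587 and 1918 bases in V16D/H19. It was the 1 paralogue without overlap of 2 with H3K27me3, and 2.41% of all genes with the mark were longer in V16D/H19 without overlap.

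Several of these genes, though none of the 10 markers, are in the authors' tables of differential sites. For H3K4me3 the authors' mean concentration, on a log2 scale, was 4.42 in V16D/CTL against 5.36 in V16D/H19 at PCSK2, 4.18 and 5.5 at CADPS, 10.05 and 9.70 at MAOA, and 10.91 and 10.77 at ENO3. For H3K27me3 all 11 listed sites of these genes were lower in V16D/H19, as were 91.5% of the 1140 sites in that table. The largest of these differences was at a site annotated to CPLX2, a complexin, with 5.87 and 4.77. It was a distal intergenic site, 10737 bases from the annotated start. H3K27me3 length in the CPLX2 window itself overlapped between the groups. The site over the DBH start had 7.25 and 6.50. Sites annotated to PTPRN2, SLC6A3, SV2B and SYPL2 were also among the 11. These are group means without an SD, and the sites were selected by the authors for differing between the groups.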

How the data were processed

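ChIP-seq for H3K4me3 and H3K27me3 was analysed from the 12 deposited peak lists of V16D/CTL and V16D/H19 cells (3 replicates per group and mark), with groups and replicate numbers from the sample titles. Peak calling was done by the authors with MACS2, library by library over an input, narrow for H3K4me3 and broad for H3K27me3, on hg38 according to the submitters' processing notes. Aligner and versions are not given in the sources used here. For every peak, the deposited lists hold a score, the linear ratio of signal to input (fold), and p and q as −log10. The authors' 2 tables of differential sites, made with DiffBind and ChIPseeker, give the log2 mean concentration of each group. Their fold, p-value and FDR columns hold the authors' own comparison and were not used. The 6 input libraries have no list of their own. Read depth was not used, so precision was judged from the 3 replicates alone, and lists depend on depth.

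Gene positions came from RefSeq on GRCh38.p14. Of 20033 protein-coding genes, 19671 (98.2%) had a strand, 15842 from the RefSeq promoter table and 3829 from GENCODE by symbol, without its coordinates, which are on another build. All genes were measured. Bases under peaks and the highest fold were computed per window (3 kb upstream to the gene's end, at least 1 shared base), and promoter peaks within 1 kb of the start. Between groups, an exact two-sided permutation test was run over the 20 assignments, which cannot give p below 0.1. No gene passed 0.05, so a gene is described by whether its groups overlap, beside the share of all genes that do so. Sequences and motifs came from RefSeq promoters. The measures were tested on simulated data. Analyses used Python 3.11.15, numpy 2.4.6, pandas 2.3.3 and matplotlib 3.10.9.

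The 10 markers and the other gene lists were chosen with earlier results of these data known. All 10 markers are named, and from each other list at most 4 genes whose H3K4me3 or H3K27me3 length does not overlap, largest difference first, except 1 gene that is not reported here. Alternatives were a window without the upstream 3 kb, peaks with a −log10 q of at least 5, lists of equal length, peaks lying mostly inside the window (at least as many bases inside as outside), a promoter of 3 kb, leaving out each replicate, and a replicate block. Same-numbered libraries of the groups deviated independently (correlations of log2 length from −0.0361 to 0.0168), so numbers were not treated as pairs.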

Additional observations from a re-analysis of the deposited data

How the results depend on the processing

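Counts of markers whose groups did not overlap were small and moved with the choices. For H3K4me3 length the count was 1 (SYP), 2 without the 3 kb upstream (SYP and ENO2) and 0 with the stricter threshold, and from 1 to 4 with a replicate left out; 4 (CHGB, SYP, ENO2 and NCAM1) came without V16D/H19 replicate 3, and 2 (SCG3 and SYP) without V16D/CTL replicate 2. For H3K27me3 length the count was 1 (CHGB), 2 without the 3 kb upstream (CHGA, higher, and CHGB), 0 with the stricter threshold, 0 with peaks mostly inside the window, 0 as a share of the library's covered length (chosen after seeing the data), and from 1 to 3 with a replicate left out; 3 came without V16D/CTL replicate 1 (CHGA and CHGB lower, SCG3 higher) or V16D/H19 replicate 2 (CHGB and SNAP25 lower, SCG2 higher), and 2 without V16D/CTL replicate 2 (CHGB and SNAP25). For H3K4me3 fold the count was 1 (SCG3) and ranged from 1 to 3 with a replicate left out, 3 without V16D/CTL replicate 1 (SCG3 and SNAP25 higher, ENO2 lower) and 2 without V16D/CTL replicate 2 (SCG3 higher, SYP lower). For H3K27me3 fold it was 0, from 0 to 2 with a replicate left out (1 without V16D/CTL replicate 1 or 2, 2 without V16D/H19 replicate 1 or 2), and 2 under a replicate block (SCG3 and NCAM1, lower). Under the replicate block the count stayed at 1 for both lengths and for H3K4me3 fold, and no sign-flip p can fall below 0.25. Alternatives for the folds, and leaving out replicates for promoter counts, were added after seeing the data.

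The mean number of markers with an H3K27me3 promoter peak differed by −1 (V16D/H19 minus V16D/CTL), by 0.667 with a promoter of 3 kb and by 0.333 with lists of equal length. It ranged from −1.83 without V16D/CTL replicate 1 to −0.333 without V16D/CTL replicate 2, while the H3K4me3 and bivalent counts moved by less than 1 SD. The direction of single-gene mean length differences (bases) reversed 18 times, with groups that overlapped except at CHGA without the 3 kb upstream: SCG3 H3K4me3 −33.7 and CHGA 519 and ENO2 −147 H3K27me3 without the 3 kb upstream; NCAM1 H3K27me3 −1443 with the stricter threshold; CHGA 622 and DDC 57.7 H3K27me3 with lists of equal length; and, with a replicate left out, SCG3 (−26 to 169) and SNAP25 (−184 to 306) for H3K4me3, and CHGA (−755 to 197), DDC (−163 to 62.5), ENO2 (−119 to 149.8) and NCAM1 (−2605 to 3345) for H3K27me3. The ranges with a replicate left out also hold differences that kept their direction. Among these, groups did not overlap at SCG3 (169, without V16D/CTL replicate 2) and CHGA (−755, without V16D/CTL replicate 1). The causes of the reversals were not tested. A group size of 3 libraries, peak lists in place of reads, and H3K27me3 peaks that rarely pass a strict q limit what can be shown.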
